A study of Capra hircus with 6 samples.

Results

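In goat fetal fibroblasts kept for 10 weeks with a graphene oxide and silver nanoparticle composite, 107 named genes had no read in any treated library while every untreated library held at least 1. They were taken from a table of 11374 protein-coding genes by a rule on raw read counts. A gene had to carry a symbol, 0 reads in all 3 treated libraries, at least 1 read in each of 3 control libraries and at least 20 control reads in all. Genes with placeholder symbols, ribosomal proteins, solute carriers and common zinc finger families were left out of the search, which left 8701 named genes. The members were thus chosen by the gene read counts of both groups, so their control reads and treated zeros are a description, and no test of them is given.

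The cells are fibroblasts, which build the collagen-rich matrix of connective tissue, taken from Capra hircus with a labelled fetal age of 50 days. Treated cells were grown with 0.5 µg/mL of GO-AgNP, control cells with 0 µg/mL, and both were passaged every 2 to 3 days. Each group has 3 libraries of total RNA freed of ribosomal RNA and prepared with a strand-recording kit. No transgene, allele or further agent is named for either group. The labels leave it unsaid whether libraries of 1 group were grown apart, so the p-values below speak only of spread among these libraries, possibly of a technical kind. In bulk RNA, fewer cells that express a gene and less RNA of it per cell cannot be told apart.

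The members do not form 1 pathway. They include signalling ligands and their receptors, ion channels, proteases, lysosomal and peroxisomal proteins, transcription factors and interferon-induced genes. Ligands such as ephrins and Gas6 act on receptor tyrosine kinases of neighbouring cells. Lysosomes digest what endocytosis and autophagy deliver, and peroxisomes shorten very long fatty acids and begin ether lipid synthesis. Interferon-induced genes are the antiviral programme that many cells, fibroblasts among them, switch on after sensing foreign nucleic acid.

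The libraries were shallow. Treated libraries held 155452 to 218493 gene reads and control libraries 203786 to 245958. One gene without a symbol, ENSCHIG00000018556, took 30.5% to 47.5% of the treated reads and 3.51% to 14.5% of the control reads. After TMM scaling, which sets libraries on a common footing through genes of middling change, the treated libraries were worth 0.586 times the control depth, against 0.818 times by their totals. At an equal scaled level, a gene with 20 control reads would have had 11.7 treated reads. A total of 0 over the treated libraries allows up to 3 reads, or 6.66 CPM (reads in each 1000000 scaled reads), counting error only. Of 10 fibroblast markers, 9 were in the table and all 9 had reads in both groups, with a summed level of 11583 to 13323 CPM in the control and 18686 to 22900 in the treated libraries. Epithelial markers KRT8 and KRT19 were at 0 in the controls and summed to 84.2 to 153.2 CPM in the treated libraries. Neural and Schwann markers SOX10 and S100B were also at 0 in the controls, with 13 to 93.0 CPM in the treated libraries. The muscle markers MYF5 and DES went the other way, with 3.36 to 22.9 CPM in the controls and 0 in the treated libraries. Of 6 blood markers 3 were in the table, summing to 23.7 to 77.8 CPM in the control and 0 to 57.3 in the treated libraries, and CD14 was at 0 in the latter. The 1 endothelial marker in the table of 5 listed had 27.5 to 36.9 CPM in the control and 0 to 25.5 in the treated libraries. The part of other cell types in the members' values was not tested.

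Among the 2363 named genes that met the control part of the rule, the 107 members are 4.53%. The share without a treated read fell with the number of control reads. It was 11% at 20 to 29 control reads, where 75 of 682 genes were members. At 30 to 49 reads it was 4.11% (24 of 584 genes) and at 50 to 99 reads 1.54% (8 of 518 genes). None of the 579 genes with 100 or more control reads was at 0 in the treated cells. The members' control totals accordingly lie low, with a median of 26 reads and a range from 20 to 76.

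**Figure D1:**
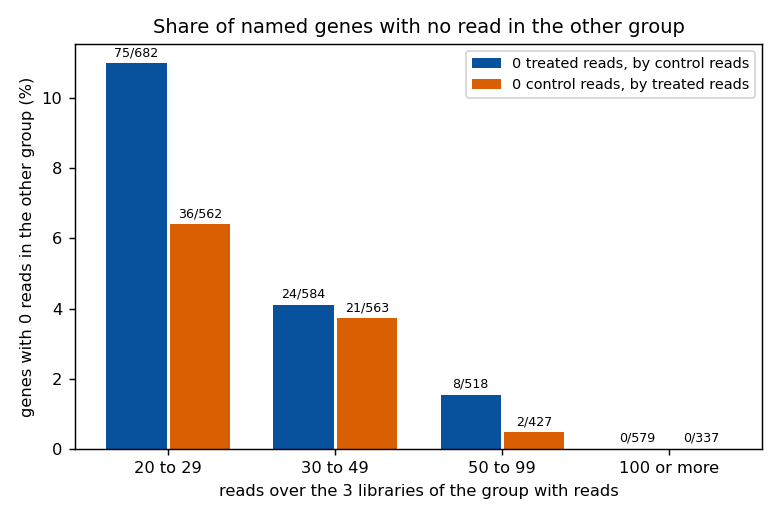
Share of named genes with no read in one group (vertical axis, percent) by their reads in the other group (horizontal axis, 3 libraries summed). Blue bars show genes at 0 in the treated cells and orange bars genes at 0 in the control cells, and the numbers above the bars are genes at 0 over all genes of the class. Both shares shrink with depth and reach 0 at 100 or more reads.

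The mirrored rule, with treated and control exchanged, was met by 59 of 1889 genes, or 3.12%. The shares in that direction were 6.41%, 3.73% and 0.468% in the same 3 classes of read number and 0 above them. The treated libraries are the shallower ones after scaling, so equal read minimums do not stand for equal levels in the 2 directions.

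**Figure D2:**
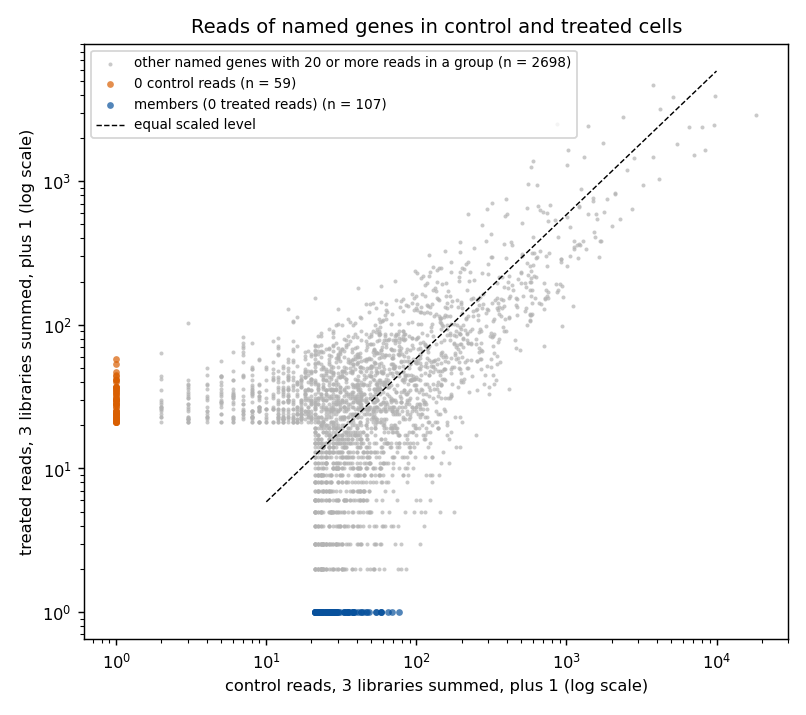
Control reads against treated reads of each named gene whose reads in either group numbered 20 or more with none of that group's libraries empty, both axes summed over 3 libraries plus 1, on log scales. The 107 members (blue) lie on the lower edge and the 59 genes of the mirrored rule (orange) on the left edge, and the dashed line marks equal scaled levels.

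The edges of the rule are crowded. Another 36 genes had 17 to 19 control reads and no treated read, among them ANTXR1 with 4, 9 and 6 reads in control replicates 1 to 3 and CCNT2 with 4, 10 and 5. Another 54 genes met every control criterion and had exactly 1 treated read. CREB1, the transcription factor activated by cyclic AMP, had 25, 27 and 32 control reads and 1 treated read. EIF2AK3, the kinase that slows translation during stress of the endoplasmic reticulum, had 6, 4 and 64 control reads and 1 treated read. In 5 further genes 1 or more control libraries were empty, as in RAB37 with 0, 0 and 53 reads. Of all table rows, 159 met the counts, and 46 of these have no symbol and 6 a symbol outside the rule.

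Within the controls the members varied from library to library. Control replicates 1, 2 and 3 held 1080, 1182 and 922 member reads, which is 0.530%, 0.481% and 0.452% of their gene reads. Scaled, the 3 libraries were close, at 4264, 3969 and 4218 CPM. No single control library supplied the set, since 35 members were highest in replicate 1, 31 in replicate 2 and 41 in replicate 3. Single genes were less even. The ratio of the highest to the lowest control library, in CPM, had a median of 2.18 and ran from 1.16 to 19.99. It stayed under 2 in 43 members and passed 5 in 12. In 36 members 1 library gave over 50% of the summed level. KNDC1 had 5, 20 and 1 reads and PCDHAC2 17, 1 and 4, so the presence of such genes in control cells rests mostly on 1 library.

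**Figure D3:**
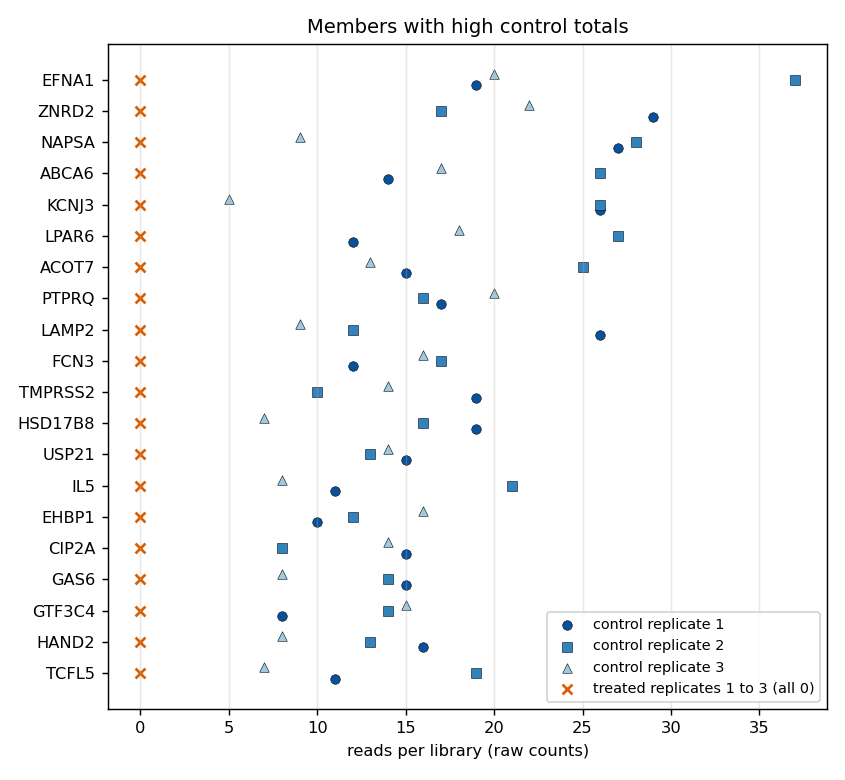
Reads per library (horizontal axis, raw counts) of 20 members with high control totals, ordered by those totals. Blue symbols are control replicates 1 to 3 and orange crosses the 3 treated libraries, all at 0; EFNA1 reaches 37 reads in control replicate 2 while KCNJ3 drops to 5 in replicate 3.

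The secreted and membrane-bound ligands held the member with the most reads. EFNA1, a membrane-anchored ephrin that activates EphA receptors on adjoining cells, had 19, 37 and 20 control reads. Its level was 96.9 ± 25.1 CPM (SD, n = 3). With the 3 libraries pooled, its 76 reads made 98.7 CPM, at least 14.8-fold higher in the controls than the 6.66 CPM that 3 treated reads would give. All such bounds below set the pooled control reads against that limit, so they can differ slightly from the mean level over the limit. They take the control reads as exact and cover the counting error of the treated zeros only. The rule chose the members by these same reads, so the bounds are description and can be too high. FCN3, a ficolin that starts the lectin route of complement, had 12, 17 and 16 reads, or 59.2 ± 13 CPM (SD, n = 3), at least 8.78-fold higher in the controls. GAS6, the ligand of the TYRO3, AXL and MERTK kinases, had 15, 14 and 8 reads and IL5, the cytokine of eosinophil growth, 11, 21 and 8. The 9 members of this class ranged from 22 to 76 reads and also included the netrin NTN3 (22, 7 and 5 reads), ANGPTL6, AMBN of the enamel matrix, IMPG2 of the retinal matrix and LTBP4, which stores latent TGF-beta on elastic fibres (8, 4 and 14 reads). FCN3 was even across the controls, while NTN3 came mostly from replicate 1.

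The Eph partner of EFNA1 in the tested genes was EPHA1, a receptor of the same system. It had 139, 160 and 109 control and 64, 76 and 41 treated reads. Its log2 fold change, treated against control, was −0.38 ± 0.22 (SE), with an adjusted p of 0.157 by edgeR. EFNA4, another A-type ephrin too low to be tested, had 6 control reads and none in the treated cells.

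Of 8 receptors, LPAR6 and PTPRQ had the most reads. LPAR6, a G protein-coupled receptor for lysophosphatidic acid that is needed for hair growth in humans, had 12, 27 and 18 control reads, or 73.5 ± 23.0 CPM (SD, n = 3), at least 11.1-fold higher. LPAR5, a second receptor of the same lipid, was also a member, with 7, 12 and 6 reads. PTPRQ, a phosphatase known from the hair bundles of the inner ear, had 17, 16 and 20 reads, at least 10.3-fold higher. The other receptors were CSF3R, the receptor of granulocyte colony-stimulating factor (9, 6 and 11 reads), IL27RA (9, 3 and 14), the relaxin receptor RXFP1 (2, 9 and 11), GPR108 (5, 18 and 4) and PDGFRL (10, 8 and 2). LPAR6 and PTPRQ were the only ones of the 8 with more than 30 reads.

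Of the genes related to these receptors, 15 of 52 other G protein-coupled receptors in the table (28.8%), 4 of 13 receptor tyrosine phosphatases (30.8%) and 10 of 35 chemokines, interleukins and receptors (28.6%) also had no treated read, beside 20.7% of the 8594 named genes outside the set. None of the 4 other genes of lysophospholipid signalling was at 0. PLPP1, a phosphatase that breaks down lysophosphatidic acid at the cell surface, had 69, 85 and 41 control and 20, 25 and 19 treated reads. It was lower by a log2 fold change of −0.81 ± 0.30 (SE; edgeR adjusted p = 0.0289), a call lost under some alternatives. SGPL1, the sphingosine phosphate lyase, gave −0.87 ± 0.78 (SE; edgeR adjusted p = 0.37). Of 10 other tested G protein-coupled receptors, 2 were higher and 4 lower in treated cells, where 24.9% of all 2148 tested genes were higher and 26.7% lower. The same background applies to the counts of higher and lower genes in the families and pathways below. The calls of GPR155 and ADORA2B (lower) and of ADGRE5 (higher) were lost under several alternatives, that of ADGRE5 also with no scaling factor. The chemokine scavenger ACKR3 rose from 12, 16 and 8 control to 20, 23 and 21 treated reads, with a log2 fold change of 1.61 ± 0.42 (SE; edgeR adjusted p = 0.00293). The serotonin receptor HTR2B fell from 82, 97 and 82 to 14, 19 and 31 reads, a change of −1.26 ± 0.29 (SE; edgeR adjusted p = 0.000898). Of 4 tested genes listed as chemokines, interleukins and their receptors, IL6 and TNFRSF11B, the decoy receptor osteoprotegerin, fell and CSF1 rose. IL6, an inflammatory cytokine, had 32, 43 and 32 control and 7, 5 and 11 treated reads (log2 fold change −1.44 ± 0.43 (SE), edgeR adjusted p = 0.00751). The call of TNFRSF11B was lost without treated replicate 3, at an adjusted p of 0.0507.

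Among 8 channels, junction proteins and transporters, ABCA6 and KCNJ3 had 57 control reads each. ABCA6, a transporter of the ABCA lipid family, had 14, 26 and 17 reads, or 73.5 ± 16.4 CPM (SD, n = 3), at least 11.1-fold higher. KCNJ3, an inwardly rectifying potassium channel subunit of heart and neurons, had 26, 26 and 5 reads, so that its SD of 42.3 CPM is large beside its mean of 70.9 CPM. The connexin GJA9 was even, with 12, 12 and 9 reads. The glycine receptor subunit GLRA2 had 6, 12 and 8 reads and SVOPL 16, 8 and 2. Of 4 other ABC genes tested, ABCF1, which takes part in translation, was higher in the treated cells (log2 fold change 2.23, edgeR adjusted p = 0.000309), ABCC3 was lower with a call lost under some alternatives (adjusted p = 0.0393), and 2 did not pass. ABCA10, a close relative of ABCA6, had 14 control reads and 0 treated reads.

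The 7 proteases had NAPSA and TMPRSS2 at their head. NAPSA, an aspartic protease known from lung and kidney, had 27, 28 and 9 control reads, at least 12.5-fold higher, and TMPRSS2, a serine protease of epithelial membranes, 19, 10 and 14. CPB1, a pancreatic carboxypeptidase, had 9, 20 and 5 reads and GGT5, which cleaves glutathione conjugates, 10, 8 and 16. CPD, ADAMTS10 and CTSV had 26, 24 and 20 reads in all. NAPSA, TMPRSS2 and CPB1 are known mainly from epithelia. The epithelial markers KRT8 and KRT19 went the other way, at 0 in the controls and a summed 84.2 to 153.2 CPM in the treated libraries.

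Lysosome and membrane traffic genes made up 9 members. LAMP2, the membrane protein through which lysosomes fuse with autophagosomes and take up single proteins, had 26, 12 and 9 control reads, or 61.4 ± 35.7 CPM (SD, n = 3), at least 9.17-fold higher. EHBP1, an endocytic adaptor, had 10, 12 and 16 reads, LAPTM4A 8, 17 and 3, and the lysosomal acid phosphatase ACP2 6, 10 and 5. RAB1A, the GTPase of traffic from the endoplasmic reticulum to the Golgi, had 4, 10 and 8, VPS13A, a bridge for lipid transfer between membranes, 10, 5 and 7, and the ESCRT protein CHMP5 11, 6 and 5.

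The authors' table annotates genes with pathway names, and 42 members carry at least 1. For lysosome, 5 members are annotated (LAMP2, LAPTM4A, ACP2, NAPSA and CTSV), which is 20% of the 25 lysosome genes that met the control criteria, beside 4.53% of all genes that met them. Some other annotated pathways had similar shares, 20% of 15 genes for neuroactive ligand-receptor interaction and 16.1% of 31 for Huntington's disease. For Jak-STAT signalling it was 15.8% of 19. Others were lower, with 10% of 30 for transcriptional misregulation in cancer, 5.71% of 70 for PI3K-Akt signalling and 4.55% of 88 for pathways in cancer. Metabolic pathways had 3.29% of 152. The lysosome pathway was singled out after the values were seen, and no test was made of its share. Of 12 lysosome genes outside the set that were tested, 1 was higher, 5 were lower and 6 did not pass. Over all tested genes, 24.9% were higher and 26.7% lower. CTSK, the collagen-degrading cathepsin, fell from 31, 39 and 35 control to 8, 10 and 8 treated reads (log2 fold change −1.24 ± 0.41 (SE), edgeR adjusted p = 0.0156), and SLC17A5, the lysosomal exporter of sialic acid, from 14, 24 and 18 to 0, 5 and 3 (−1.99 ± 0.69 (SE), edgeR adjusted p = 0.0201). AP3D1, an adaptor of sorting to lysosomes, rose from 44, 48 and 36 to 103, 87 and 63 reads (1.76 ± 0.24 (SE), edgeR adjusted p = 3.79e-06). CTSB, MFSD8 and IGF2R had log2 fold changes of 0.50, 0.12 and 0.14 that did not pass. Of the Rab GTPases, RAB3A fell from 133, 122 and 102 to 26, 14 and 14 reads (−1.96 ± 0.27 (SE), edgeR adjusted p = 4.96e-06), while RAB7A of late endosomes gave 0.51 with an adjusted p of 0.45.

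The 12 metabolic members had 20 to 53 control reads, and ACOT7 had the most. ACOT7, which splits acyl-CoA into free fatty acid and coenzyme A, had 15, 25 and 13 control reads, or 67.5 ± 14.2 CPM (SD, n = 3), at least 10.3-fold higher. HSD17B8, a dehydrogenase that also serves mitochondrial fatty acid synthesis, had 19, 16 and 7. AGPS, the peroxisomal enzyme that forms the ether bond of plasmalogens, stood at the lower edge with 7, 5 and 8 reads. Mitochondria were represented by ETFRF1 (9, 12 and 9 reads), COQ4 of coenzyme Q synthesis (6, 13 and 5) and TFAM, which packages and transcribes mitochondrial DNA (6, 11 and 5).

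Of 37 other peroxisome and fatty acid oxidation genes in the table, 6 could be tested. Of these, 5 were lower, 1 did not pass and none was higher, where 26.7% of all tested genes were lower, with a median log2 fold change of −1.92 against −0.02 over all 2148 genes tested. ACOX2, the oxidase of branched fatty acids and bile acid precursors, had 32, 20 and 26 control reads and a single treated read (log2 fold change −5.20 ± 0.88 (SE), edgeR adjusted p = 4.51e-05). The ratio of its scaled reads, treated over control, was 0.0219 with a 95% exact counting interval of 0.000547 to 0.126. ACAD11, a dehydrogenase, and ETFDH, which passes on electrons that come from such dehydrogenases, gave −2.21 and −1.62, with edgeR adjusted p values of 0.000486 and 2.83e-05. ECHDC1 gave −1.10, and its adjusted p of 0.0155 rose to 0.0506 without treated replicate 1. ACADVL, the first enzyme of mitochondrial oxidation of long chains, gave −0.83 ± 0.36 (SE; edgeR adjusted p = 0.0586). Both tested acyl-CoA thioesterases were lower, ACOT12 by −1.93 ± 0.35 (SE; edgeR adjusted p = 9.00e-05) and ACOT8 by −1.12, whose call was lost under some alternatives. PIGO, a late enzyme of the GPI membrane anchor and a member with 7, 10 and 4 reads, belongs to a list of glycosylation enzymes of which 12 others were tested, with 3 higher, 4 lower and 5 not past. Of its GPI enzymes, picked after their values were seen, 2 fell, PIGB with a log2 fold change of −1.89 and PIGF with −1.25 (edgeR adjusted p = 3.54e-05 and 1.89e-06). GALNT10, which starts O-linked sugar chains, rose by 2.58 on the same scale (edgeR adjusted p = 9.65e-05).

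**Figure D4:**
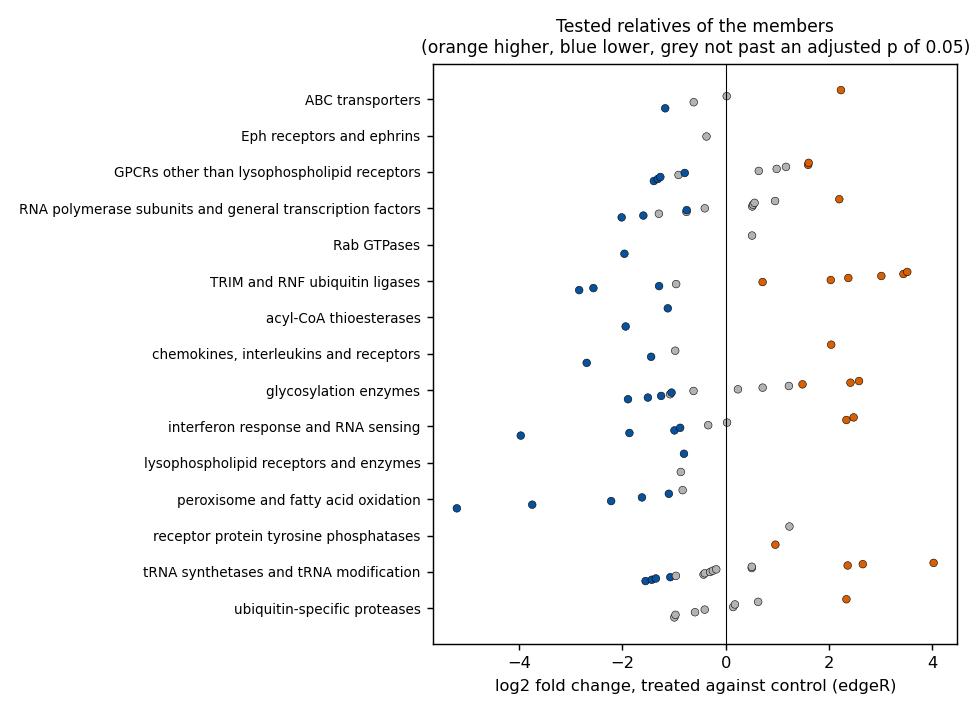
Log2 fold change by edgeR, treated against control (horizontal axis), of tested genes outside the set in the 15 gene families that hold a member (rows). Each point is a gene, orange for higher, blue for lower and grey for not past an adjusted p of 0.05; in the peroxisome row 5 of 6 points are blue and none is orange, while the ubiquitin ligase row spreads to both sides.

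Transcription and chromatin genes were the most numerous class, with 17 members and 20 to 37 control reads. GTF3C4, a subunit of the factor TFIIIC that recruits RNA polymerase III, had 8, 14 and 15 reads. HAND2, a helix-loop-helix factor of heart, limb and sympathetic neuron development, had 16, 13 and 8, and TCFL5 11, 19 and 7. The heat shock factor HSF4 had 10, 11 and 7 reads. SP1, which binds GC boxes of many promoters, had 3, 16 and 4 reads, and SIN3A, the scaffold of a histone deacetylase complex, 5, 6 and 14. HSF4 was even across the control libraries, whereas SP1 and SIN3A came largely from 1 of them. Of 11 other tested genes of the RNA polymerases and general factors, 1 was higher, 3 lower and 7 did not pass. Over all tested genes, 24.9% were higher and 26.7% lower. The lower call of SNAPC3 was lost under alternatives. GTF3C1, the largest subunit of TFIIIC, rose from 2, 13 and 10 to 31, 22 and 15 reads (log2 fold change 2.20 ± 0.51 (SE), edgeR adjusted p = 0.00116) while GTF3C4 had no treated read.

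Genes of the cell cycle and of ubiquitin numbered 8. USP21, a deubiquitinase, had 15, 13 and 14 control reads, among the most even of the set, at 55.6 ± 10.7 CPM (SD, n = 3) and at least 8.20-fold higher. CIP2A, an inhibitor of protein phosphatase PP2A, had 15, 8 and 14 reads, and CCNA2, the cyclin of S phase and G2, 10, 5 and 10. The ubiquitin ligases BRAP, TRIM2 and RNF215 had 32, 28 and 22 reads in all. Their tested relatives moved both ways. Among 10 TRIM and RNF genes, 6 were higher, 3 lower and 1 did not pass, beside 24.9% and 26.7% of all tested genes higher and lower. The higher call of RNF207 was lost under alternatives. TRIM13 fell from 39, 66 and 44 to 6, 1 and 5 reads (log2 fold change −2.83 ± 0.48 (SE), edgeR adjusted p = 4.80e-05), and RNF123 rose from 6, 1 and 0 to 15, 13 and 22 (3.52 ± 0.71 (SE), edgeR adjusted p = 0.000293). Of 8 other tested deubiquitinases, USP8 was higher (2.34, edgeR adjusted p = 0.00453) and 7 did not pass.

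The 5 RNA and translation members included RARS1, the enzyme that charges tRNA with arginine (8, 12 and 5 control reads), and EIF2A, an initiation factor (4, 4 and 13). Of 15 tested synthetases and tRNA-modifying enzymes, 3 were higher, 4 lower and 8 did not pass. Over all tested genes, 24.9% were higher and 26.7% lower. Of the 4 lower calls, those of YARS2, TRMT5 and GARS1 were lost under alternatives. MTO1, which modifies mitochondrial tRNA, rose from 8, 5 and 0 to 43, 29 and 56 reads (log2 fold change 4.03 ± 0.52 (SE), edgeR adjusted p = 2.05e-06), and TARS1, the threonine enzyme, by 2.66. GARS1, the glycine enzyme, gave −1.07 (edgeR adjusted p = 0.00595), a call lost without treated replicate 2 at 0.0515.

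Of the 12 cytoskeleton, cilia and adhesion members, the protocadherin PCDHA2 had 8, 16 and 10 reads. PCDHA2 and PCDHAC2 are known to share their last exons with the rest of the cluster, and how reads on shared exons were assigned is not given, so both are uncertain. DNAH7 and DNAH2, heavy chains of ciliary dynein, had 8, 10 and 9 and 7, 16 and 4 reads. ANXA5, which binds phosphatidylserine and is widely used to stain dying cells, had 7, 16 and 4, and MYBPC3 of cardiac muscle 8, 9 and 11. Another 9 members, headed by ZNRD2 with 29, 17 and 22 reads (at least 13.3-fold higher), were given no class.

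Interferon-induced genes gave few members, and their tested relatives moved both ways. ISG15, a ubiquitin-like protein attached to others after interferon, had 7, 13 and 2 control reads, and RSAD2, the antiviral enzyme viperin, 10, 8 and 4. TAB2, an adaptor of the kinase TAK1, had 6, 12 and 8. Of 47 listed interferon response and RNA-sensing genes, 34 were in the table and 8 outside the set could be tested. Of the 32 outside the set, 9 (28.1%) had no treated read, beside 20.7% of named genes in general and similar shares in several other families, such as 29.2% of ABC transporters. None of the 9 had more control reads than IFI44L with 10, so their zeros say little. MX1, an antiviral GTPase, fell from 29, 46 and 38 control to 2, 1 and 1 treated reads, with a log2 fold change of −3.96 ± 0.59 (SE; edgeR adjusted p = 1.17e-05). IFI6 and HERC5, the ligase that attaches ISG15 in humans, gave log2 fold changes of −0.99 and −0.88 (edgeR adjusted p = 0.000513 and 0.00782). IFIT1, which binds viral RNA, gave −1.86 (edgeR adjusted p = 0.0113), a call lost without treated replicate 1 or control replicate 1, at up to 0.0591.

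The response genes were not lower throughout. OAS1, which makes the second messenger of RNase L, rose from 7, 12 and 8 control to 25, 23 and 33 treated reads (log2 fold change 2.34 ± 0.42 (SE), edgeR adjusted p = 9.18e-05), and IFI35 from 0, 10 and 4 to 13, 16 and 17 (2.48 ± 0.65 (SE), edgeR adjusted p = 0.00302). The directions of OAS1, IFI35, MX1, IFI6 and HERC5 held with no scaling factor. The regulator IRF1 gave −0.34 and did not pass (edgeR adjusted p = 0.527). The 8 tested genes were thus 2 higher, 4 lower and 2 not past, with a median of −0.61. Over all tested genes, 24.9% were higher and 26.7% lower, with a median of −0.02. Among those too low to be tested, MX2 had 11, 17 and 8 control reads and 1 treated read. IFI44L (5, 1 and 4 control reads), DHX58 (3, 4 and 2), IFI44 (4, 4 and 0), HERC6 (4, 3 and 0) and SAMD9 (2, 2 and 2) had none in the treated cells. Others had more raw reads in the treated cells, IFIT2 with 13 control and 18 treated reads in all, TRIM25 with 11 and 18, IFIT5 with 5 and 12 and IRF7 with 0 and 11.

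The edgeR fit over the whole gene table describes the members in a limited way. Its filter on low counts kept 9 of the 107 (among them EFNA1, ZNRD2, ABCA6, LPAR6, ACOT7, PTPRQ, FCN3 and USP21), all called lower, where 26.7% of the 2148 tested genes were lower and 24.9% higher. The 9 passed the filter through their control reads alone and had to differ, so nothing is read from this count. Without the filter all 107 were called lower, beside 10.2% of all 11374 genes lower and 8.27% higher, and since the rule fixed that outcome too, it is no test of the members. With no scaling factor the median log2 fold change of all tested genes moved from −0.02 to −0.47, and the split of 534 higher and 574 lower genes became 326 and 769.

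Genes beside members were compared because reads where genes overlap cannot be assigned with certainty while the strand setting of the counting is not given. With gene order taken from RefSeq (assembly ARS1.2) and used for neighbourhood only, 95 members could be placed, and 46 of them (48.4%) had another gene overlapping or within 1 kb. That share was 60.8% for 2096 other genes that met the control criteria. It was 48.2% for all 7926 placed named genes outside the set, which include those 2096. Of 27 such neighbours in the gene table, 21 had reads in the treated cells. RB1, the retinoblastoma gene, which overlaps LPAR6, had 18, 10 and 12 control and 11, 10 and 1 treated reads, with a log2 fold change of −0.10 ± 0.63 (SE; edgeR adjusted p = 0.908). DDX31, an RNA helicase beside GTF3C4, had 30, 24 and 22 against 16, 22 and 12 reads (0.17 ± 0.40 (SE), edgeR adjusted p = 0.752).

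Of the 7 neighbours tested, 2 were lower, 1 was higher and 4 did not pass, beside 26.7% lower and 24.9% higher of all tested genes. CEP68, a centrosome protein beside RAB1A, rose from 39, 37 and 24 to 87, 65 and 76 reads (log2 fold change 1.96 ± 0.24 (SE), edgeR adjusted p = 1.34e-06). EXOSC8, an exosome subunit that overlaps SUPT20H, fell from 54, 56 and 25 to 10, 2 and 16 (−1.48 ± 0.47 (SE), edgeR adjusted p = 0.0107). DDB2, a DNA damage sensor beside ACP2, fell from 399, 360 and 302 to 96, 91 and 114 (−1.06 ± 0.17 (SE), edgeR adjusted p = 2.55e-05). A few neighbours shared the zeros. SLC39A10, a zinc transporter that overlaps DNAH7, had 12, 12 and 9 control reads and 0 treated reads, and RHBDL2, a membrane protease beside GJA9, 9, 5 and 2 against 0. FANCG, a DNA repair gene beside PIGO, had 10, 5 and 6 against 0, 1 and 0. How reads on the stretch shared by DNAH7 and SLC39A10 were assigned is not given.

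A second readout came from circular RNAs, closed loops made when an exon end is spliced back to an earlier exon start and counted by reads across that junction. The junction counts were no part of the rule, but they come from the same libraries and the same contrast, so they too are given without a test. Of the 107 members, 15 (14%) hosted 24 circRNAs, against 22.5% of 2256 other genes that met the control criteria. These 24 had 98 control and 5 treated junction reads. Control replicates 1 to 3 showed 16, 15 and 15 of them and the treated libraries 1 each. Of the 24, 22 (91.7%) had reads in control cells alone, beside 73.9% of all 3503 circRNAs.

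All circRNAs had fewer junction reads in the treated cells, 4287 against 17348, a ratio of 0.247. For circRNAs of members the ratio was 0.0510, for those of other genes that met the control criteria 0.259 (869 against 3360 reads), and for the 7 circRNAs of genes of the mirrored rule 0.167 (4 against 24 reads). Members took 0.607%, 0.562% and 0.520% of the junction reads in the control libraries, or 0.563% ± 0.0437 (SD, n = 3). In the treated libraries they took 0.142%, 0.155% and 0.0631%, or 0.120% ± 0.0497 (SD, n = 3). The pooled treated share was 0.206 times the control share, with a 95% exact counting interval of 0.0656 to 0.498. This interval pools the libraries and treats reads as independent, so spread among libraries is left out, and it is no test of the members. IL27RA held 4 of the 5 treated reads. Genes without a control read in the gene table thus also had most of their junction reads in control cells, on 6 host genes.

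**Figure D5:**
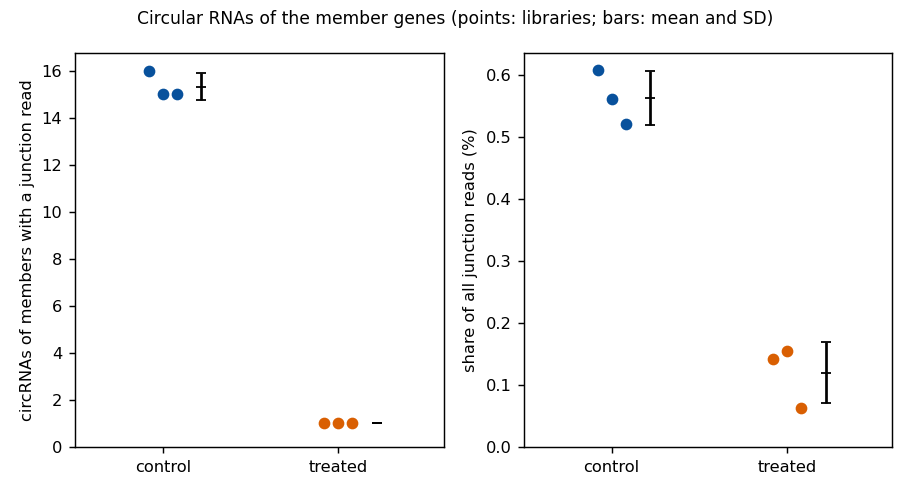
Left, number of circRNAs of member genes with a junction read in each library; right, their share of all junction reads (percent). Points are libraries and bars the mean and SD of 3; controls lie at 15 to 16 circRNAs and 0.520% to 0.607%, treated libraries at 1 circRNA and at most 0.155%.

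VPS13A hosted the most junction reads, 21 on 5 circRNAs, with 6, 9 and 6 in the controls and 0 in the treated libraries. EHBP1 had 5, 6 and 5 junction reads on 2 circRNAs and TMTC2 8, 3 and 4 on 4 circRNAs, both with 0 in treated cells. The single circRNA with the most reads was an exonic one of EHBP1 at chr11:61007886-61010724 on the plus strand, in coordinates as deposited, with 4, 6 and 4 reads. An exonic circRNA of RAB1A at chr11:63209538-63215588 on the minus strand had 0, 6 and 2. No goat build is given for these positions, and the human build hg19 in the submitters' processing notes is at odds with circRNA chromosomes numbered as in goat. Of the 24, 18 were exonic, 3 intronic, 2 sense-overlapping and 1 antisense in the authors' annotation, and 6 were seen in all 3 controls.

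Treated junction reads fell on 2 member genes. The exonic circRNA of IL27RA had 3, 2 and 1 control and 2, 2 and 0 treated reads, although the gene table lists IL27RA with 0 treated reads. PALM3, which overlaps IL27RA in RefSeq, had 26, 48 and 30 control and 12, 25 and 24 treated reads in the gene table. How reads on their shared stretch were assigned is not given, and its part in the IL27RA values was not tested. An intronic circRNA of AGPS had 1 read in treated replicate 3 and none in the controls. Among the 431 lncRNA transcripts of the series, 0 are listed with a member gene.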

How the data were processed

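Total RNA of 6 libraries was sequenced after ribosomal RNA depletion for 150 cycles, per the labels' protocols. The authors deposited raw read counts per protein-coding gene and per circRNA junction, per the file headers. CASAVA 1.8, BWA and hg19 appear in the submitters' processing notes. Not given in the sources used here are the counter, its strand setting, the circRNA caller and the goat annotation. Another 18 per-library normalized columns were not used.

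Groups came from the labelled treatment. The members, gene lists and tests were chosen with earlier results of these data known, and members were put in functional classes by hand after their values were seen. Named were the members with the most control reads to rank 20 with ties, members of the fixed gene lists and tested genes of those lists. Other named genes, among them neighbours, genes at the edge of the rule and lysosome genes, were picked after their values were seen. All genes of the table entered edgeR 4.0.16 under R 4.3.3 (TMM scaling, filterByExpr with minimum count 10, quasi-likelihood test, Benjamini-Hochberg threshold 0.05). CPM values use TMM-scaled library sizes. Standard errors are the log2 fold change over the square root of F. A planned permutation test of the circRNA values is not reported, because the contrast chose the members. Its smallest p at 3 against 3 is 0.1. Members were counted in Python 3.11.15 with pandas 2.3.3 and scipy 1.17.1. The edgeR fit was checked on counts simulated for 2148 genes. It recovered 26.5% of 2-fold and 76.0% of 4-fold changes, with 1.85% and 3.18% of calls false. A gene that did not pass may thus still have changed. The simulation changed a smaller share of genes than was called in the data, so it does not check the scaling there. Alternatives changed the read minimum, scaling, filter, test (DESeq2 1.42.0), replicate block and libraries used. Some features are not reported here.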

Additional observations from a re-analysis of the deposited data

How the results depend on the processing

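The 107 members depend on the minimum of 20 reads. A minimum of 10 gave 322 and of 30 gave 32, allowing 1 treated read gave 161, control reads scaled by the ratio of table totals gave 68, and a mean control level of at least 50 CPM gave 29. Leaving out 1 library gave 38 to 158. Without control replicate 1, 2 or 3 there were 49, 38 and 48, by construction, since the same minimum then applied to fewer reads, and without treated replicate 1, 2 or 3 there were 144, 145 and 158, since fewer zeros were asked for. Of the fitted counts, higher genes (534) came to 326 with no scaling factor and 941 with no filter, and lower genes (574) to 1165 with no filter. Leaving out 1 library gave 553 to 625 higher and 539 to 653 lower. The 9 members called became 107 with no filter, 3 with a mean count of at least 10, 5 without the gene with most reads, and 11 to 26 on leaving out 1 library, where the filter kept more genes. Non-members of the families went from 21 to 46 higher and from 34 to 59 lower with no filter. DESeq2's Wald test gave 484 higher and 497 lower. Same-numbered libraries of the 2 groups did not deviate together (correlations −0.02, −0.01 and −0.03). With so few and shallow libraries this cannot show that they were unpaired, and the labels name no pairing. With a replicate block 497 genes were higher, 544 lower and 9 members called. The treated minus control difference in the members' share of junction reads was −0.44 percentage points, −0.55 without the most abundant circRNA, −0.70 among exonic circRNAs, and −0.46 to −0.41 on leaving out 1 library. The difference in circRNAs per library was −14.3, and −9 with at least 2 reads a library. The cause of these moves was not tested except where stated. Depth limits the set: 75 of the 107 members rest on 20 to 29 control reads.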
